A study of Homo sapiens with 2 samples.

Results

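The genes described here mark or direct the 2 epithelial lineages of the liver, the bile duct cells and the hepatocytes, and were taken by name from the RefSeq gene table of GRCh38.p14. They are 9 of the 59716 genes placed on chromosomes in that table, of which 20050 are protein-coding. SOX9, KRT7 and KRT19 are biliary genes (3 members), HNF4A and PROX1 are hepatocyte factors (2 members), and FOXA1, FOXA2, ONECUT1 and GATA6 act in the common progenitor or in both lineages (4 members). The question was whether HOXA5, a homeodomain transcription factor, had peaks at these genes in bile duct cancer cells, and whether the biliary genes differed from the hepatocyte genes.

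TFK-1, a human cell line of extrahepatic cholangiocarcinoma, was used for both conditions. LV-HOXA5 cells carried a lentivirus for Flag-tagged HOXA5, and LV-HOXA5-NC cells the control lentivirus. An anti-Flag antibody was used for CUT & Tag, in which a transposase brought in by the antibody cuts the DNA beside the tagged protein. There was 1 library per condition, so that no value has a replicate and no difference between the conditions was tested. HOXA5 was read through its tag in cells made to express it, and peaks of the untagged protein were not measured.

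The bile ducts and the hepatocytes arise from a shared progenitor of the embryonic liver. FOXA1 and FOXA2 are pioneer factors that open chromatin of the foregut endoderm, GATA6 acts beside them, and ONECUT1 (also called HNF6) is needed for the bile ducts as well as for hepatocyte genes. SOX9 marks the duct lineage, KRT7 and KRT19 build the keratin filaments of duct cells, HNF4A is the central regulator of hepatocyte genes, and PROX1 is needed for hepatoblasts to migrate and for the hepatocyte fate. Peaks do not measure expression, and whether these TFK-1 cells expressed the duct markers could not be checked from them.

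None of the 9 lineage genes had an LV-HOXA5 peak inside it or within 3 kb of an end. Among all protein-coding genes, 20.7% had one. The exact 95% binomial interval for 0 of 9 ran from 0% to 33.6%, which held the level of all protein-coding genes, so a count of 0 among so few genes does not set them apart. The biliary members (0 of 3) and the hepatocyte members (0 of 2) had the same count, as had the shared members (0 of 4). In the LV-HOXA5-NC list, too, 0 of the 9 genes had a peak by this rule, against 0.648% of all protein-coding genes. Intervals cover counting error only, and genes are not replicates. Among the 12864 protein-coding genes no shorter and no longer than the members, 19.0% had an LV-HOXA5 peak by the same rule.

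A listed peak is a stretch in which the number of overlapping fragments at the summit, the pileup, passed a q-value of 0.05 against the local background of the same library. The LV-HOXA5 library held 15778555 fragments and gave 8043 peaks, none with a pileup below 8. The LV-HOXA5-NC library held 1948734 fragments, 12.4% of that number, and gave 635 peaks with a lowest pileup of 4. Enrichment below the threshold of the authors is not in the lists. Scaled by the fragment totals to the depth of the control library, 6981 of the LV-HOXA5 peaks (86.8%) would have a pileup below 4.

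Within 100 kb, 3 of the 9 genes had an LV-HOXA5 peak (33.3%, interval 7.49% to 70.1%), against 55.2% of all protein-coding genes. These were KRT7 with 2 peaks, KRT19 with 1 peak and ONECUT1 with 1 peak, hence 4 peaks in all. Over all protein-coding genes the median was 1 peak within 100 kb, with quartiles of 0 and 2. The 3 biliary genes thus had 3 of the 4 peaks and the 2 hepatocyte factors had 0. With groups of this size the difference was not tested. No LV-HOXA5-NC peak lay within 100 kb of any of the 9 genes, whereas 3.14% of all protein-coding genes had one.

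**Figure D1:**
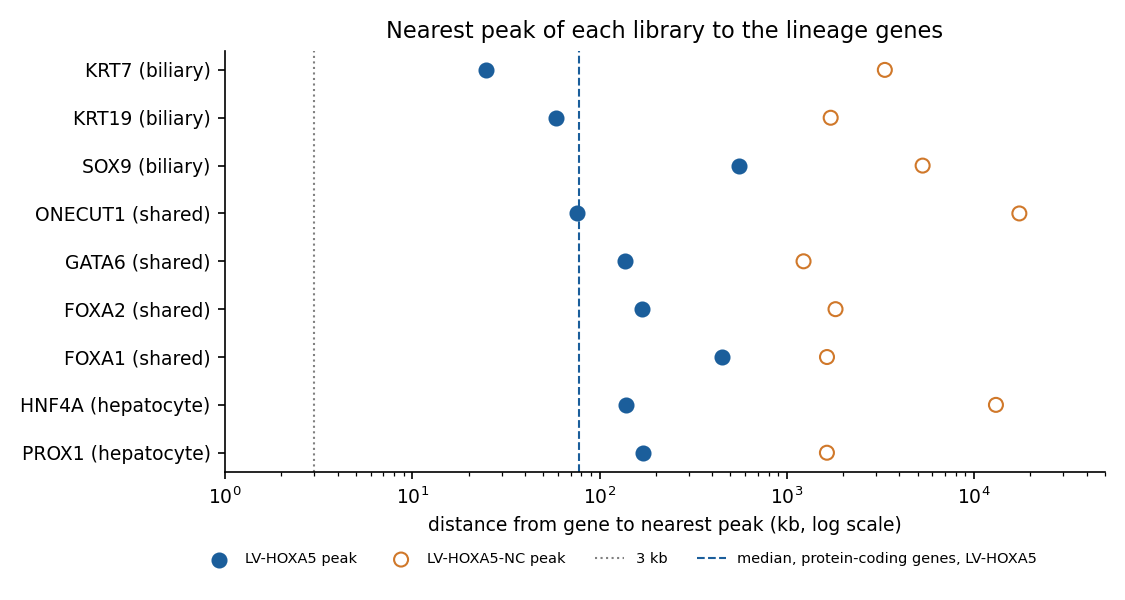
Distance in kb (log scale) from each lineage gene to the nearest LV-HOXA5 peak (filled) and the nearest LV-HOXA5-NC peak (open), with 1 library per condition. The dotted line marks 3 kb and the dashed line the LV-HOXA5 median of all protein-coding genes, 78.0 kb. All 9 genes lie beyond 3 kb, and KRT7, KRT19 and ONECUT1 lie below the median.

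KRT7, a type II keratin of simple duct epithelia, had the shortest distance of the 9 genes. The gene (chr12:52233243-52255853, 22.6 kb) lay between 2 LV-HOXA5 peaks, 24.6 kb above it and 29.5 kb below it in coordinate. The nearer peak (chr12:52280486-52281417, 932 bp long) had a pileup of 31 fragments, and its fold enrichment over the local level was 4.14 with a −log10 q-value of 7.95. That peak lay inside KRT86, a hair keratin gene, 5841 bp from its nearest end and 4496 bp from the neighbouring KRT81. The farther peak (chr12:52203366-52203728, 363 bp) had a pileup of 29, a fold of 4.87 and a −log10 q-value of 9.32. It overlapped no gene of the table and lay 11352 bp from KRT80, another type II keratin, and 1095 bp from the non-coding LINC02874. Both peaks were thus nearer to other keratin genes than to KRT7. The local background at these peaks was 4.68 and 3.59 times the genome-wide level of the library, while the median over all LV-HOXA5 peaks was 1.77 and the upper quartile 2.55. The nearest LV-HOXA5-NC peak lay 3340 kb from KRT7.

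KRT19, the type I keratin used most widely as a duct marker, is a short gene (chr17:41523617-41528308, 4.69 kb) among other type I keratins. Its nearest LV-HOXA5 peak lay 58.5 kb below it (chr17:41464647-41465090, 444 bp) and had a pileup of 15, a fold of 3.41 and a −log10 q-value of 2.58. The peak lay inside KRT32, another hair keratin, 2296 bp from its start, and was a weak one, since 5.98% of the LV-HOXA5 peaks had a lower fold. On the other side, the next peak lay 151 kb away with a fold of 3.43. KRT19 had 11 other protein-coding genes within 100 kb, all keratins, and 1 of them, KRT32, had a peak inside or within 3 kb. The nearest LV-HOXA5-NC peak lay 1720 kb away.

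SOX9, the transcription factor of the duct lineage, stood at the other end of the range. No LV-HOXA5 peak was found between 1540 kb below and 557 kb above the gene (chr17:72121020-72126416, 5.4 kb), a stretch of 2110 kb. Of 19869 protein-coding genes, 86.5% had a shorter stretch, where a gene with a peak inside it counted as having none. The stretch around FOXA1 was about as long, at 2100 kb (86.4%). SOX9 had no other protein-coding gene within 100 kb. The peak above it (chr17:72683705-72684241, 537 bp) lay inside SLC39A11, a zinc transporter gene, with a pileup of 31, a fold of 5.76 and a −log10 q-value of 12.2. Among all protein-coding genes, 89.9% had a nearer LV-HOXA5 peak than SOX9. The nearest LV-HOXA5-NC peak lay 5320 kb away.

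Both hepatocyte factors had their nearest LV-HOXA5 peak beyond 100 kb. HNF4A (chr20:44355699-44434596, 78.9 kb) is the longest of the 9 genes, and its nearest peak lay 138 kb downstream (chr20:44572816-44573412, 597 bp). That peak had a pileup of 14, a fold of 4.97 and a −log10 q-value of 4.85, and it lay inside PKIG, which encodes a protein kinase A inhibitor. PROX1 (chr1:213983151-214041510, 58.4 kb) had its nearest peak at 172 kb (chr1:214213067-214213320, 254 bp), in no gene of the table, with a pileup of 12, a fold of 4.63 and a −log10 q-value of 3.81. The nearest protein-coding gene end was that of SMYD2, at 67839 bp. The stretch without an LV-HOXA5 peak around PROX1 was 1160 kb long, and that around HNF4A 554 kb, near the median of 512 kb over protein-coding genes. In that median, too, genes with a peak inside them counted as having no stretch. The nearest LV-HOXA5-NC peaks lay 13100 kb from HNF4A and 1640 kb from PROX1.

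Of the shared factors, ONECUT1 had a peak within 100 kb. The gene (chr15:52755053-52790336, minus strand) had a peak 75.8 kb downstream of it (chr15:52678934-52679292, 359 bp) with a pileup of 9, a fold of 3.26 and a −log10 q-value of 1.37, so that 3.97% of the LV-HOXA5 peaks had a lower fold. It lay inside ATOSA, 96 bp from a listed transcription start of that gene. ATOSA was the single protein-coding gene within 100 kb of ONECUT1.

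FOXA2 had the strongest nearest peak of the 9 genes. The peak lay 169 kb below the gene (chr20:22411651-22412250, 600 bp) inside the non-coding LOC284788, with a pileup of 39, a fold of 8.1 and a −log10 q-value of 21.4, and 93.7% of the LV-HOXA5 peaks had a lower fold. Scaled to the control depth, its pileup was 4.82, at a local background 2.74 times the genome-wide level. Control peaks with at least that background had pileups of 6 or more, and the lack of an overlapping LV-HOXA5-NC peak does not show that it depends on HOXA5. FOXA2 (chr20:22580998-22585490) was the nearest protein-coding gene to this peak, and no other protein-coding gene lay within 100 kb of FOXA2.

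GATA6 (chr18:22169589-22202528, plus strand) was likewise the nearest protein-coding gene to its nearest peak, which lay 137 kb upstream in no gene of the table (chr18:22032462-22032730, 269 bp) with a pileup of 12, a fold of 5.0 and a −log10 q-value of 4.34. FOXA1 (chr14:37589552-37595249, minus strand) had its nearest peak 449 kb upstream (chr14:38044713-38045025, 313 bp), with a pileup of 9, a fold of 4.1 and a −log10 q-value of 2.41. The next peak on the other side of FOXA1 lay 1640 kb away and overlapped an LV-HOXA5-NC peak, the nearest control peak to that gene. Nearest control peaks lay at 1230 kb for GATA6, 1820 kb for FOXA2 and 17500 kb for ONECUT1.

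**Figure D2:**
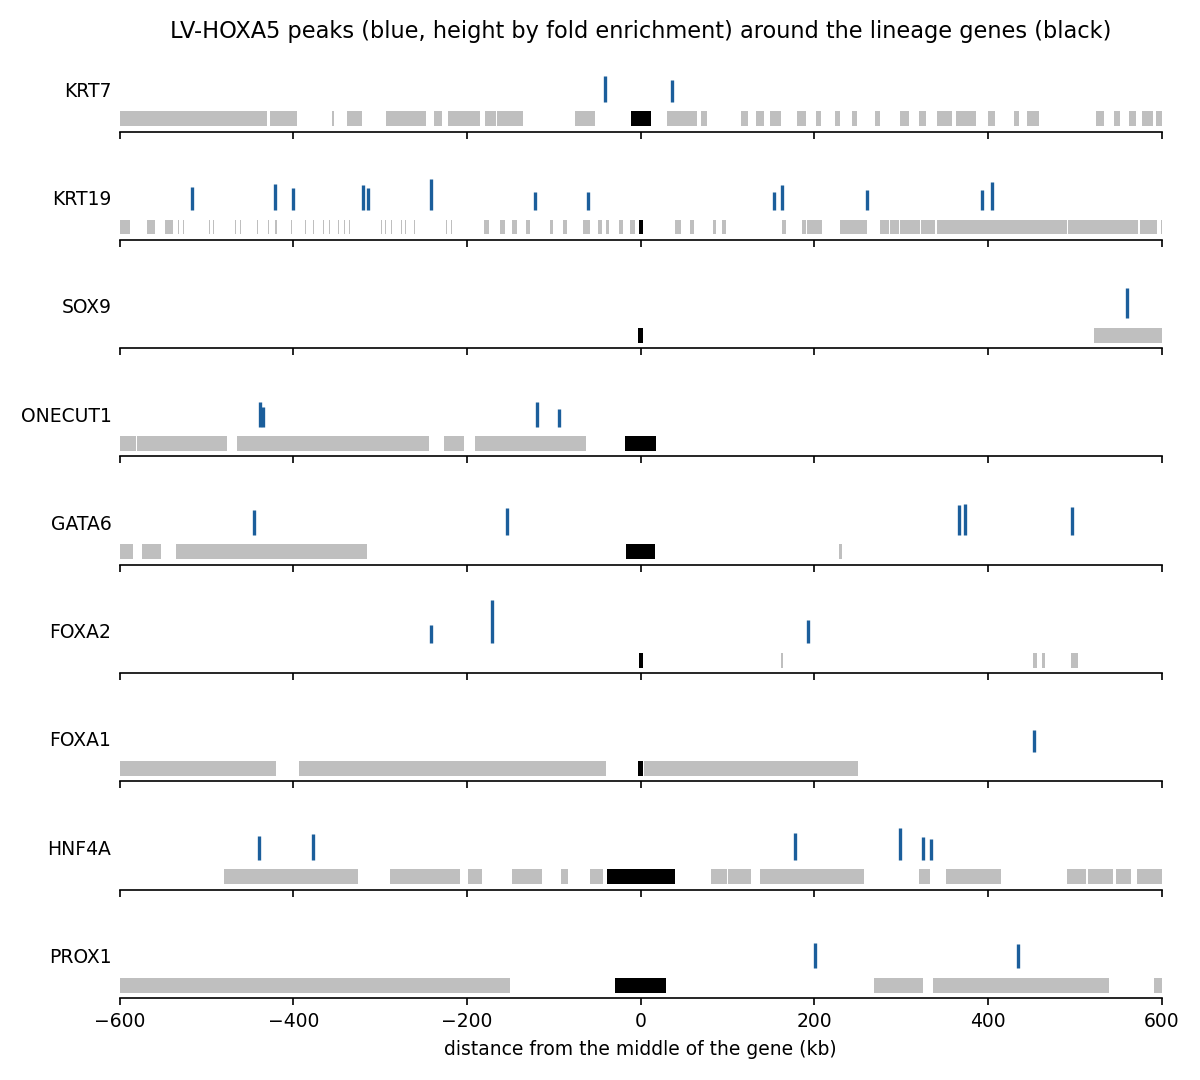
LV-HOXA5 peaks (blue lines, height by fold enrichment) within 600 kb of the middle of each lineage gene (black bar), with other protein-coding genes as grey bars, all drawn to scale against distance in kb. KRT19 has 13 peaks in its window, and SOX9 and FOXA1 have 1 each.

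The order of the 9 genes by distance was KRT7, KRT19, ONECUT1, GATA6, HNF4A, FOXA2, PROX1, FOXA1 and SOX9. The median was 138 kb, against 78.0 kb over all protein-coding genes, with an upper quartile of 246 kb there. The biliary genes held both the shortest and the longest distance, 24.6 kb and 557 kb, with the hepatocyte factors at 138 kb and 172 kb between them. Together the 9 genes had 24 protein-coding neighbours within 100 kb, and 4 of these neighbours (KRT86, KRT32, PKIG and ATOSA) had a peak inside or within 3 kb, or 16.7%, near the 20.7% of all protein-coding genes. None of the 4 peaks within 100 kb had a lineage gene as its nearest protein-coding gene.

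Other genes of the same lineages had peaks at about the level of all protein-coding genes. Of 22 other biliary genes, 5 had an LV-HOXA5 peak inside or within 3 kb (22.7%, interval 7.82% to 45.4%), and of 22 other hepatocyte genes, 3 had one (13.6%, interval 2.91% to 34.9%). Both intervals held the 20.7% of all protein-coding genes, and they overlapped each other. Within 3 kb of a gene end, leaving out peaks deeper inside genes, the counts were 3 of 22 and 3 of 22, against 14.9% of protein-coding genes. Within 100 kb, 13 biliary genes (59.1%, interval 36.4% to 79.3%) and 9 hepatocyte genes (40.9%, interval 20.7% to 63.6%) had a peak. Both intervals held the 55.2% of all protein-coding genes. The median distance to the nearest peak was 70.6 kb in the biliary list and 134 kb in the hepatocyte list, against 78.0 kb over all protein-coding genes. The biliary genes were longer, with a median of 27.3 kb against 12.7 kb, and the part of length was not tested. No gene of either list had an LV-HOXA5-NC peak within 3 kb, against 0.648% of all protein-coding genes.

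**Figure D3:**
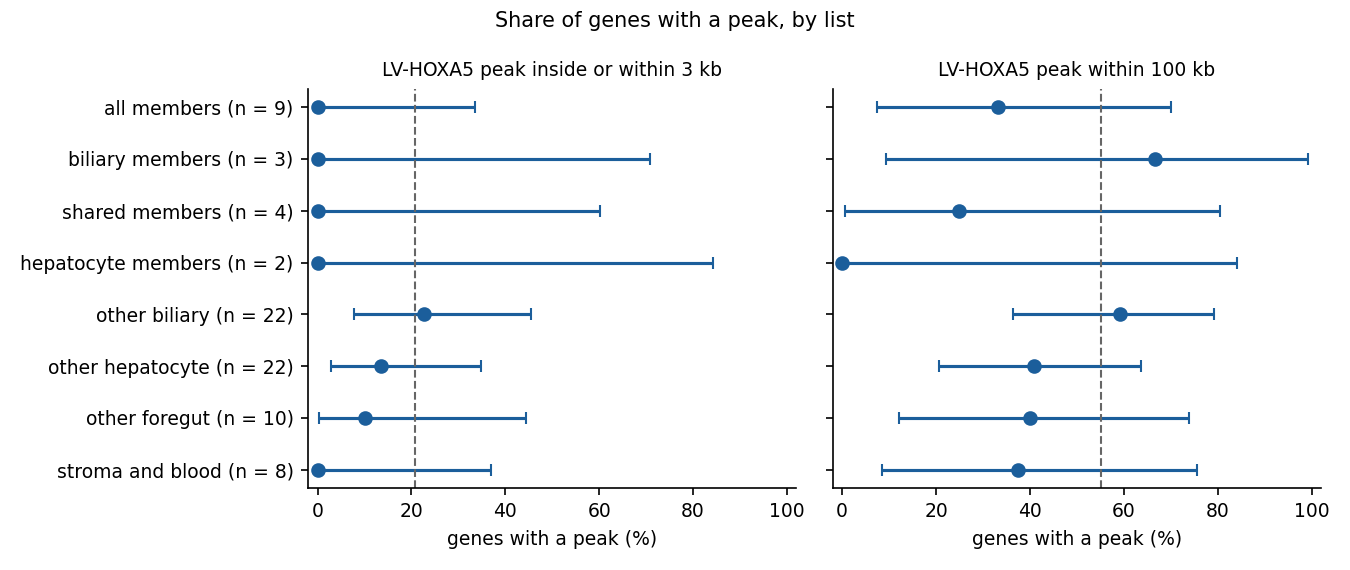
Share of genes (%) with an LV-HOXA5 peak inside or within 3 kb (left) and within 100 kb (right) in each list, with exact 95% binomial intervals that cover counting error only. The dashed lines mark all protein-coding genes, 20.7% and 55.2%, and every interval holds its line.

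KRT8, the type II keratin of simple epithelia and so not particular to ducts, had 3 peaks, the most in the biliary list after CFTR. Of these, 2 lay on either side of its listed transcription start, at 693 bp (chr12:52925280-52925776) and 753 bp (chr12:52927222-52927606), with pileups of 26 and 20 and folds of 4.11 and 3.24. The other lay 862 bp beyond the 3′ end of the gene (chr12:52895673-52896329) with a fold of 4.24. KRT8 and KRT18, its filament partner, overlap in the gene table, but the nearest peak to KRT18 lay 21.2 kb from it.

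YAP1, the transcriptional co-activator of the Hippo pathway, which favours the duct fate, had 2 peaks inside it. The first (chr11:102112009-102112469) lay 1562 bp inside the gene from its start, with a pileup of 13, a fold of 4.44 and a −log10 q-value of 3.79. It was about as near, at 1552 bp, to the start of the non-coding YAP1-DT. The second lay 54917 bp from the nearest end with a fold of 4.42. MUC1, a mucin of glandular epithelia, had 1 peak inside it, 3158 bp from its start (chr1:155189305-155189751), with a pileup of 29, a fold of 4.82 and a −log10 q-value of 9.18.

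CFTR, the chloride channel of duct cells, had 4 peaks inside it, with folds of 4.88, 5.33, 4.03 and 4.54. Measured from its start, they lay 102156, 108563, 165663 and 186066 bp into a gene of 189 kb, the last of them 2164 bp from its 3′ end. BICC1, an RNA-binding protein whose loss gives cystic kidneys and ducts, had 2 peaks inside it, 43189 and 128867 bp from its nearest end, with folds of 4.61 and 5.17, in a gene of 319 kb. The median length was 44.2 kb for protein-coding genes with a peak and 20.7 kb for those without, and the part of gene length in the peaks of CFTR and BICC1 was not tested.

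Among the hepatocyte genes, FOXA3, the third FOXA factor, had 1 peak 939 bp upstream of its start (chr19:45862623-45863387, pileup 24, fold 4.89, −log10 q-value 7.77). That peak covered the transcription start of the neighbouring SYMPK, which encodes a scaffold protein of mRNA polyadenylation. CPS1, the first enzyme of the urea cycle, had 3 peaks. Of these, 1 lay 949 bp upstream of it (chr2:210476473-210476736, pileup 11, fold 4.66), 23 bp from the start of LANCL1. The other 2 lay inside CPS1 with folds of 6.37 and 4.18. TAT, which breaks down tyrosine, had 1 peak 226 bp below it in coordinate (chr16:71565024-71565434, pileup 11, fold 4.09), 8 bp from a start of the antisense TAT-AS1. In all 3 of these genes the peak near an end was thus nearer to the start of another gene. The first peak of YAP1, a biliary gene, was about equally far from 2 starts.

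**Figure D4:**
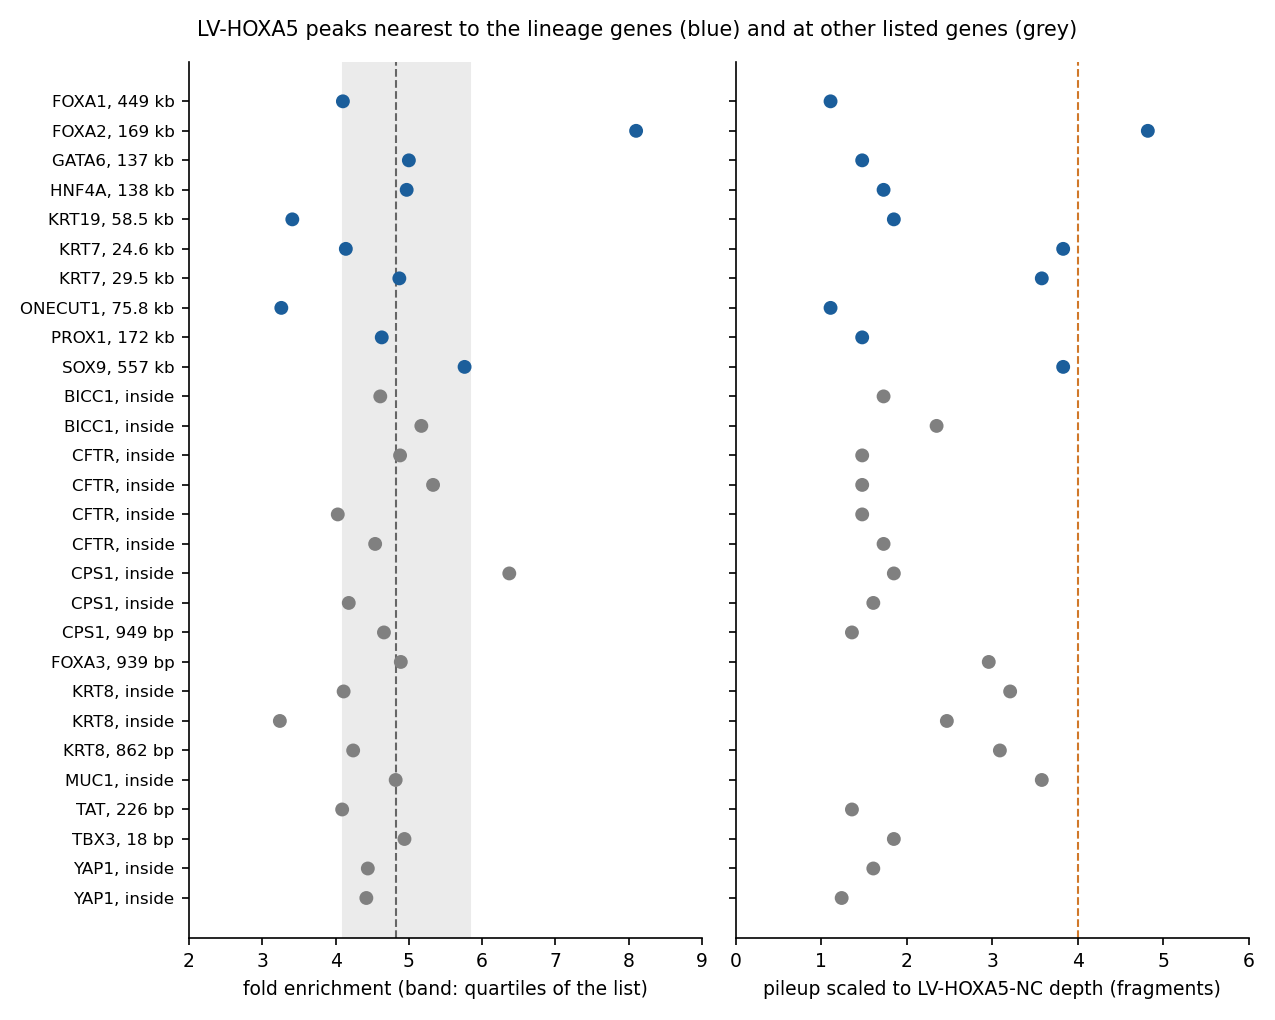
Fold enrichment (left) and pileup scaled by fragment totals to the control library (right) of the LV-HOXA5 peaks that lay nearest to the lineage genes or within 100 kb (blue) and of those inside or within 3 kb of other listed genes (grey), each labelled with its distance from the gene. The grey band and dashed line on the left show the quartiles and the median of the whole list, 4.1, 5.83 and 4.82, and the line on the right the lowest pileup of the control list, 4. The peak nearest to FOXA2 is the single one shown above that line, and control peaks of a pileup of 4 had a local background of at most 1.25 times the genome-wide level.

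Among the peaks at the other listed genes, the highest fold was at CPS1 (6.37) and the lowest at KRT8 (3.24), against a median of 4.82 over the whole LV-HOXA5 list. None of them overlapped an LV-HOXA5-NC peak, but the control list held 635 peaks against 8043. Without the LV-HOXA5 peaks that overlapped a control peak, 20.5% of protein-coding genes still had one inside or within 3 kb, against 20.7%. The lack of overlap thus says little about these sites. Scaled by the fragment totals, each peak at the other listed genes had a pileup below 4. The same held for the 4 peaks within 100 kb of the lineage genes (3.83, 3.58, 1.85 and 1.11). Fragments were longer in the control library. Scaled by coverage (14.2%) in place of fragment totals, the 2 peaks near KRT7 (4.4 and 4.12) and that of MUC1 (4.12) did reach 4. So did the peak nearest to SOX9 (4.4). Their local backgrounds were 4.68, 3.59, 3.64 and 3.17 times the genome-wide level, in that order. Control peaks with a background of at least 2.74 times had pileups of 6 or more, which none of these peaks reached. Whether any of these sites depends on HOXA5 was not tested.

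Promoter windows, from 250 bases before to 50 after a transcription start, were given by RefSeq (GRCh38.p14) for 4 members, HNF4A with 2 starts and FOXA1, ONECUT1 and GATA6 with 1 each. SOX9, FOXA2, PROX1, KRT7 and KRT19 had no entry. No LV-HOXA5 peak overlapped any of the 5 windows. Over all lists, 42 of the 71 listed genes had such windows, and 0 of the 42 had a peak in one (interval 0% to 8.41%), against 12.6% of the 15843 protein-coding genes with an entry. This interval, which treats genes as independent, did not hold the level of all protein-coding genes. The 29 listed genes without an entry were left out of this count. Among them, TBX3 had a peak 18 bp above it in coordinate and TAT one 226 bp below it. Whether either peak lay at a transcription start was not known. Within 3 kb of the same starts, 4 of the 42 genes (KRT8, YAP1, CPS1 and FOXA3) had a peak (9.52%, interval 2.66% to 22.6%). The share was also below the 15.3% of protein-coding genes with an entry, but that interval held this level. It is too wide to show whether a difference was present or absent at this distance. The lists were chosen by hand with results of these data known, and no cause of the difference in the narrow windows was tested.

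The letters TAAT (the core bound by many homeodomains), TAATTA (which contains TAAT on both strands) and TGATNNAT (a form bound by HOX proteins together with PBX) were looked for on both strands. TAAT was present in 3 of the 5 member windows, TAATTA in 1 and TGATNNAT in 0. Of all 35116 promoter windows of that length, 50.2% held TAAT, 4.84% TAATTA and 7.4% TGATNNAT. Windows that an LV-HOXA5 peak overlapped (2892, 8.24% of all) held them at shares of 39.7%, 2.14% and 3.91%, a difference that was not tested. Base composition differs between promoters and was not taken into account. The letters in a window do not show binding, and their absence says only that they are not in that window.

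Both starts of HNF4A are shown because this gene is the one member whose window held TAATTA although no peak lay near, with the nearest peak edge 217117 bp from the first start and 171577 bp from the second. The start of KRT8 is shown because its window lay between 2 peaks and held TGATNNAT. The starts of SYMPK and LANCL1 are shown because the peaks beside FOXA3 and CPS1 reached into their windows, over 290 and 27 bases. Windows of ATOSA and TAT-AS1 were also reached, over 74 and 42 bases, by the peaks near ONECUT1 and TAT. Those windows held none of the letters and are not shown. At LANCL1 the shared bases all lay after the start, so that none of the bases shown for it, nor any match in them, was under the peak. Each sequence is the 250 bases before the start, 5′ to 3′ on the strand of the gene, with matches to the letters above in capitals. The positions are chr20:44355449-44355698 (plus strand) and chr20:44400989-44401238 (plus) for HNF4A, chr12:52926470-52926719 (minus) for KRT8, chr19:45863148-45863397 (minus) for SYMPK and chr2:210476760-210477009 (minus) for LANCL1.
HNF4A, first start: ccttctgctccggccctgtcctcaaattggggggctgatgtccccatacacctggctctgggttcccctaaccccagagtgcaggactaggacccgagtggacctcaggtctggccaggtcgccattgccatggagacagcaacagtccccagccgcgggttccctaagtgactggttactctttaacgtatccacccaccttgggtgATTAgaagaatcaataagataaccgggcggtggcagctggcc
HNF4A, second start: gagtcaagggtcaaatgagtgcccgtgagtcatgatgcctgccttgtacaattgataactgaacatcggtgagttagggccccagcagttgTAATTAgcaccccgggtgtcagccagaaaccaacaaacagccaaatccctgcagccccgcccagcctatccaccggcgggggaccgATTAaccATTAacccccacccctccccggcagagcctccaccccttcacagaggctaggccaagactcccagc
KRT8: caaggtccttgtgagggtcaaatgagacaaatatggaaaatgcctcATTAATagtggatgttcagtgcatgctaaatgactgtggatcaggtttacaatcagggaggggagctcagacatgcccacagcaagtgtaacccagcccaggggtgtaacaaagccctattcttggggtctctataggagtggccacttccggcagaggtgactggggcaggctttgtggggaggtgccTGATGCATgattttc
SYMPK: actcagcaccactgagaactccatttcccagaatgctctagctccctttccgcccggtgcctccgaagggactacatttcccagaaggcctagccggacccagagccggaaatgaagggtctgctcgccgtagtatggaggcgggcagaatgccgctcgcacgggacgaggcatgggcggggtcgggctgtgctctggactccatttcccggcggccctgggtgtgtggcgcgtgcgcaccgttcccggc
LANCL1: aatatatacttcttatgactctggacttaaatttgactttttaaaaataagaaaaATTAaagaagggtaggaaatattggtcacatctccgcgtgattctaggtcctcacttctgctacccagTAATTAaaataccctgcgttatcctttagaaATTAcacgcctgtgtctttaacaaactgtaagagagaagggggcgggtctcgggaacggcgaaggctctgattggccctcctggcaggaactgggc
The second HNF4A window held 4 matches to TAAT and 1 to TAATTA, and the LANCL1 window likewise 4 and 1. The SYMPK window, which the peak covered almost whole, held none of the letters.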

How the data were processed

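Per the submitters' processing notes, fastp, Bowtie2, deepTools, MACS2 and ChIPseeker were used, with the build GRCh38. The authors called peaks in each library alone with MACS2 2.2.7.1 at a q-value of 0.05, with no control library. The deposited tables give the position of each peak, its pileup signal in fragments (not scaled for depth), its fold enrichment as a ratio to local background, and its −log10 p-value and q-value. From these, the local background was recovered as (pileup + 1) / fold − 1, and its genome-wide level from the fragments, the fragment length and an effective genome size of 2700000000 bp. Scaled pileups are multiplied by the ratio of the fragment totals.

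Distances ran from the edge of a peak to the edge of a gene in RefSeq GRCh38.p14, with 0 for a shared base. Strand and starts were known only where the promoter table gave them. Distance code was tested on simulated data. Shares have exact 95% Clopper-Pearson intervals.

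All 9 members are named, with each gene of the other lists that had an LV-HOXA5 peak inside or within 3 kb. The lists held other biliary, other hepatocyte, other foregut, and stroma and blood genes. Members and lists were chosen with earlier results of these data known. Other cutoffs, distances and gene sets were tried as alternatives. Python 3.11.15, NumPy 2.4.6, SciPy 1.17.1, pandas 2.3.3 and Matplotlib 3.10.9 were used.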

Additional observations from a re-analysis of the deposited data

How the results depend on the processing

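Across 67 comparisons of 10 results with another setting, 50 moved by no more than 1.5 times or, for a share, stayed inside its interval, and 17 moved further. The counts of 0 in LV-HOXA5 (all members, biliary members and hepatocyte members) and in LV-HOXA5-NC (all members) were 0 under every setting tried. Only the 10 kb setting could have raised them. The others kept fewer peaks or bases, or regrouped members already at 0, and so show no stability. These counts nevertheless enter the 50, with 8 comparisons for all members, 8 for biliary members and 9 for hepatocyte members. The control list added 7 more. All 17 that moved further belonged to other results, so the 50 do not measure how stable the results are. The setting at transcription starts could use 4 of the 9 members (1 hepatocyte, 3 shared, and no biliary gene, for which it gave no value), 17 and 15 of the 22 genes of the other biliary and hepatocyte lists, and 15843 protein-coding genes.

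The share of protein-coding genes with an LV-HOXA5 peak (20.7%, interval 20.1% to 21.2%) was 17.9% with a q-value of 0.001 or less, 11.2% with a fold at or above the median, 19.5% within 1 kb, 24.7% within 10 kb, 14.9% at gene ends only, 15.3% at starts only, and 11.2% over all genes of the table. Among genes of the members' range of lengths, a setting chosen after seeing the data, it was 19.0%. The 4 peaks within 100 kb of a member became 2 with the stricter q-value, 1 with the higher fold, 2 within 50 kb, 13 within 200 kb, and 0 when a member had to be the nearest protein-coding gene. The 5 other biliary genes became 2 with the higher fold (BICC1 and CFTR), 3 at gene ends and 2 at starts (KRT8 and YAP1). The 3 other hepatocyte genes became 5 within 10 kb. These settings keep fewer or more peaks, bases or genes by construction. Scaled by coverage, a setting chosen after seeing the data, 6675 LV-HOXA5 peaks in place of 6981 fell below the lowest control pileup.

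No paired analysis was possible because each condition had 1 library. The LV-HOXA5 list had a lowest pileup of 8, the control list one of 4. How depth bears on what the lists miss was not tested.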

Other observations

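The gene families of the members, with the members themselves included, were counted after the members' values had been seen. Of 19 SOX genes, 1 had an LV-HOXA5 peak inside or within 3 kb (5.26%, interval 0.133% to 26.0%). This was SOX6, with a peak that covered its transcription start (chr11:16738303-16738804, pileup 12, fold 4.95) and that also overlapped C11orf58. None of 6 GATA, 3 ONECUT, 2 PROX and 4 HNF1 and HNF4 genes had one, and of the 3 FOXA genes only FOXA3 had one. Of 55 keratin genes, 3 had a peak, KRT86, KRT8 and KRT32 (5.45%, interval 1.14% to 15.1%), against 20.7% of all protein-coding genes. The keratins lie in clusters on chromosomes 12 (2 of 27) and 17 (1 of 28) and share their surroundings, so the interval is too narrow.

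Among 10 other foregut genes, 1 had an LV-HOXA5 peak inside or within 3 kb (interval 0.253% to 44.5%). This was TBX3, a T-box factor of liver bud growth, with a peak 18 bp above it in coordinate (chr12:114684193-114684513, pileup 15, fold 4.94, −log10 q-value 5.1). That peak overlapped TBX3-AS1. None of 8 stroma and blood genes had an LV-HOXA5 peak by this rule (interval 0% to 36.9%). Both intervals held the 20.7% of all protein-coding genes, so neither count sets its list apart. ACTA2, the smooth muscle actin, had an LV-HOXA5-NC peak inside it (chr10:88948673-88949006, fold 4.12, −log10 q-value 1.67), while its nearest LV-HOXA5 peak lay 227 kb away. The pileup of that control peak, 4, was the lowest of the control list. SOX4, a biliary factor, had an LV-HOXA5-NC peak at 42.0 kb and its nearest LV-HOXA5 peak at 133 kb. Of all protein-coding genes, 0.648% had an LV-HOXA5-NC peak inside or within 3 kb and 3.14% had one within 100 kb.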
